A study of Equus caballus with 19 samples.

Results

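Interferon-induced genes are switched on in blood cells when type I or type II interferon binds its receptor, and they are best known for the defence against viruses. Most are silent or low at rest and rise together, because the same transcription factors bind their promoters. Some of them feed back on the pathway, and these regulators decide how strongly and for how long a cell answers.

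The values here concern 5 such genes in the blood of horses, out of 1179 genes named here through RefSeq accessions or the study's lists. MX1, which encodes a GTPase that blocks viral replication, and IFI27, which encodes a small protein strongly induced by type I interferon, were taken by name. IRF7, a transcription factor that drives the interferon genes themselves, USP18, a protease that removes the ubiquitin-like modifier ISG15 and dampens signalling at the interferon receptor, and SPATS2L were chosen on the difference between the treatment groups in these same arrays, since they come from the study's lists of probes that differed. For these 3 genes the difference between the groups is therefore a description with no test. MX1 and IFI27 were named with earlier results of these arrays known, so their p over all probes is no independent evidence of a difference. The 5 genes were measured by 11 probes, and all 11 were well above background on all 19 arrays.

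The horses were Welsh foals about 10 months old when the treatment began, 1 array per horse, sampled at its end after 12 weeks. The 9 control horses (6 males and 3 females) were stabled singly without physical contact and had a plain diet, a condition that the labels call impoverished in social and sensory terms. The 10 EE-treated horses (4 males and 6 females) received environmental enrichment (EE), which combined grazing in company for most of the day with roomier stabling, changing things to explore, scents, sound and a diverse diet. Whole venous blood was drawn into a reagent that stabilises RNA, and the signal of each probe is given on a log2 scale, on which the 75th percentile of every array was brought to the log2 of 500. On each array between 61.2% and 69.6% of spots had a signal well above background, and precision is limited by how many arrays there were. In whole blood, fewer cells of a type and less RNA per cell cannot be told apart.

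Each gene is given by 1 probe: the brighter probe for MX1, the single probe of IFI27, and the listed probe for IRF7, USP18 and SPATS2L. MX1 had a log2 signal of 12.21 at the lowest, 13.21 at the median and 15.57 at the highest in control horses, and of 11.22, 12.20 and 13.46 in EE-treated horses. All 10 EE-treated horses had less MX1 signal than the control mean, and 4 of the 9 control horses lay above every EE-treated horse, although the groups overlapped. The means were 13.51 ± 1.30 (SD, n = 9) under control conditions and 12.31 ± 0.66 (SD, n = 10) with EE. The difference, EE-treated minus control, was -1.20 on the log2 scale, with a standard error of 0.43. Its adjusted p was 0.313 in limma, with Benjamini-Hochberg adjustment over 43384 probes, and thus missed the threshold of 0.05.

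IFI27 ranged from 13.47 over a median of 14.89 to 15.59 in the control group and from 12.79 over 13.43 to 15.43 in the EE-treated group. Only 1 control horse lay above every EE-treated horse, since EE-treated horse469 and horse646, at 15.43 and 15.23, were well above the other 8. The means were 14.57 ± 0.74 (SD, n = 9) and 13.69 ± 0.91 (SD, n = 10), and the difference of -0.89 (standard error 0.36, 8 of 10 EE-treated horses below the control mean) had an adjusted p of 0.356 in limma. At an unadjusted p under 0.05 with the lower signal in EE, both MX1 and IFI27 counted among the 4.24% of all probes that passed, from which nothing is read, given how they were chosen. A further 7.44% of all probes passed with the higher signal in EE. With quantile normalization the probes with lower signal made up 46.8% of those that passed, against 36.3% with the scaling used here and 15.5% with normexp background correction. No probe of the array reached an adjusted p under 0.05 in limma or in the random-variance test named in the methods (0 in each), while 5068 probes reached an unadjusted p under 0.05 in limma. The adjusted threshold was passed by 3 probes without control horse650, by 1 without control horse472, by 2 with the dim probes left out and by 7 with normexp background correction.

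Among the regulators, IRF7 lay between 14.06 and 16.56 with a median of 14.64 in control horses and between 12.55 and 15.40 with a median of 13.52 in EE-treated horses. The means were 15.11 ± 0.98 (SD, n = 9) and 13.71 ± 0.86 (SD, n = 10), which differed by -1.40 (standard error 0.40). A single EE-treated animal, horse469, was above the control mean. USP18 lay between 5.83 and 8.72 with a median of 6.39 in control horses, and between 4.55 and 5.88 with a median of 5.32 in EE-treated horses. Here 8 of the 9 control horses were above every EE-treated horse, and the control group was drawn out upwards by horse470, horse476 and horse645, at 8.72, 8.60 and 7.68, the other 6 being at 6.54 or less. The mean of USP18 was 6.84 ± 1.18 (SD, n = 9) against 5.29 ± 0.53 (SD, n = 10), a difference of -1.55 (standard error 0.39). SPATS2L lay between 8.94 and 11.61 with a median of 9.81 in control horses and between 7.81 and 10.27 with a median of 8.52 in EE-treated horses. Its means of 9.92 ± 0.93 (SD, n = 9) and 8.64 ± 0.69 (SD, n = 10) differed by -1.29 (standard error 0.35), and 9 of 10 EE-treated horses were under the mean of the controls. These 3 genes were listed because they differed, so the direction of their differences was fixed by that choice.

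**Figure D1:**
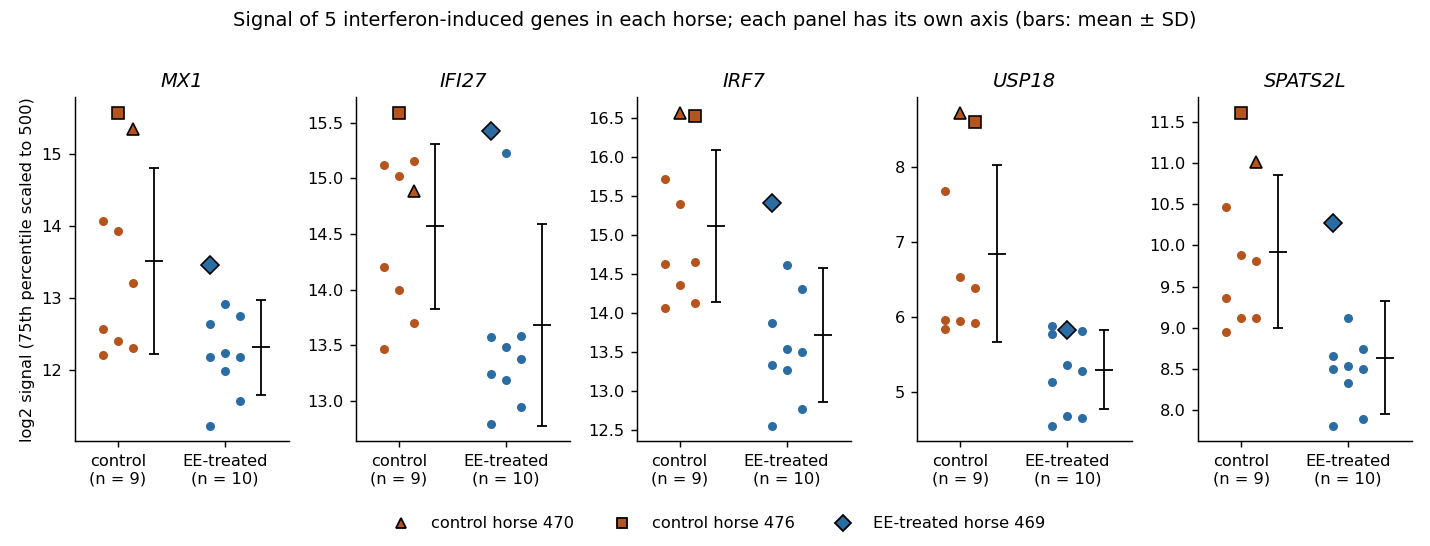
Log2 signal of each of the 5 genes (vertical axes, 1 per gene) in 9 control and 10 EE-treated horses (horizontal axis), with 1 point per horse and bars for mean ± SD. Control horse470 and horse476 sit at or near the top for MX1, IRF7, USP18 and SPATS2L, EE-treated horse469 is the highest of its group for all genes but USP18, and the groups overlap for every gene.

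The other probes of these genes were set beside the first. The other probe of MX1 differed by -1.26 between the groups and followed the first with r = 0.999 over control horses and 0.988 over EE-treated horses. The probe of USP18 that bears the symbol only through the transcript it shares with the listed probe differed by -1.39, and the 4 further probes of SPATS2L by -1.13 to -1.19, against -1.29 for the listed probe. Both USP18 probes moved together, with r = 0.998 over control horses and 0.930 over EE-treated horses. IFI27 and IRF7 each had a single probe, so that their values rest on that probe.

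The horses differed more in these genes than in most transcripts. The SD within groups was 1.01 for MX1, 0.92 for IRF7, 0.89 for USP18, 0.83 for IFI27 and 0.81 for SPATS2L on the log2 scale, whereas the median over 24530 probes well above background on every array was 0.29. An SD at least as large was found in 0.742% of these probes for MX1 and in 1.82% for SPATS2L, the extremes of the 5 genes. In the control group the highest horse exceeded the lowest 10.3-fold for MX1, 7.39-fold for USP18, 6.34-fold for SPATS2L, 5.65-fold for IRF7 and 4.35-fold for IFI27. In the EE-treated group the same ratio was 4.72 for MX1, 2.51 for USP18, 5.48 for SPATS2L, 7.20 for IRF7 and 6.22 for IFI27. Single horses set some of these ranges: without EE-treated horse469 the ratio was 2.48 for SPATS2L and 4.15 for IRF7, and without control horse476 that of SPATS2L was 4.21. The SD of control horses was 2.24 times that of EE-treated horses for USP18 and 1.97 times for MX1, but 0.820 times for IFI27. These ratios also depended on single horses. Without control horse470 and horse476, left out after seeing the data, the SD of control horses came nearer that of EE-treated horses for MX1 and USP18. Without EE-treated horse469 the SD of control horses was the larger for IFI27 too. The median ratio of the SDs over the 24530 probes was 1.07, and the difference in spread was not tested.

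Which horses were high was read within each group, so that the difference between the groups did not set the order. Of the 9 control horses, horse476 and horse470 were the 2 highest for MX1, IRF7, USP18 and SPATS2L, and horse645 ranked 3rd for each of these 4 genes. For IFI27 horse476 was again the highest, while horse472 ranked 2nd, horse650 3rd, horse645 4th and horse470 5th. Of the 10 EE-treated horses, horse469 was the highest for MX1, IFI27, IRF7 and SPATS2L and ranked 2nd for USP18. At the low end of that group horse648 was the lowest for MX1, IRF7 and SPATS2L but ranked 6th for IFI27 and 7th for USP18. Seen over both groups, 7 horses lay below the mean of all horses for all 5 genes, 6 of them EE-treated and 1 control. This split was set in part by the choice of 3 of the genes on the difference between the groups, so nothing is read from it. Both horse470 and horse476 were males, on slides 3 and 1 but both at array position 2, and their arrays had 64.7% and 64.8% of spots well above background, within the range of the others. The mean log2 deviation of the controls at position 2 was 2.25, 1.98, 0.85 and 0.20 (horse476, horse470, horse472 and horse647), and that of the 5 controls at position 4 was 1.26 for horse645 and between -0.20 and -0.04 for the others. The 1 EE array at position 2, that of horse475, had -0.64, while the 4 EE arrays at position 1 lay between -1.31 and -0.48 and the 5 at position 3 between -0.68 and 0.75. The part of position in these levels was not tested.

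**Figure D2:**
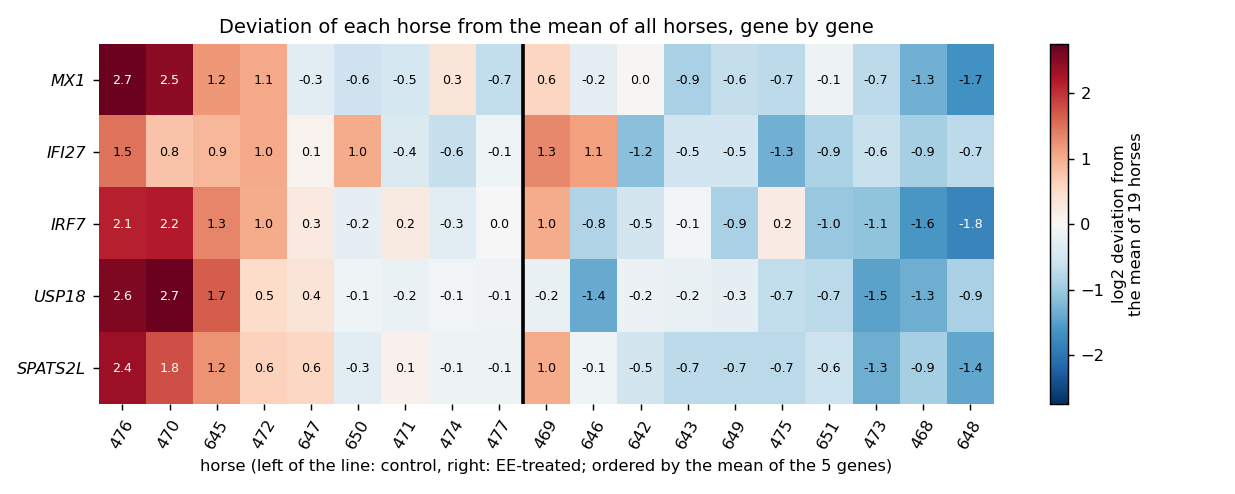
Log2 deviation of each horse from the mean of all 19 horses (colour and printed value), with horses along the horizontal axis, control horses left of the line, and the 5 genes along the vertical axis. The controls horse476, horse470, horse645 and horse472 are above the mean for every gene, whereas control horse650 and EE-treated horse646 are high for IFI27 alone.

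Whether the genes followed each other between horses was asked within each group, so that the difference between the groups, which chose 3 of the genes, did not enter. MX1, IRF7, USP18 and SPATS2L form 6 pairs, and over the 9 control horses their Pearson r lay between 0.930 and 0.966. The adjusted p of these pairs lay between 7.72e-04 and 0.00303 in a two-sided exact permutation test, adjusted over the 20 relations of both groups. No share of other probe pairs that would pass is given here for either group, so these calls have no background beside them. By Pearson's r, IRF7 and SPATS2L followed each other most closely (r = 0.966, exact permutation p = 3.86e-05; Spearman's rho = 0.933, exact permutation p = 7.50e-04), and MX1 and SPATS2L least (r = 0.930, exact permutation p = 6.42e-04; rho = 0.933, exact permutation p = 7.50e-04). By rho these pairs tied as the closest, and MX1 with IRF7 was the least close (rho = 0.800). For the 6 pairs rho was 0.800 to 0.933, with adjusted p up to 0.0395 in the exact permutation test. Without horse470 and horse476, which were farthest from the median of the first gene, r of the 6 pairs was 0.762 to 0.936. Of these, 2 pairs, MX1 with IRF7 and MX1 with SPATS2L, then missed the threshold (both adjusted p = 0.0774 in the permutation test).

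The pairs with IFI27 were less close in control horses. Its r with the other 4 genes was 0.636 to 0.685 with adjusted p between 0.0881 and 0.0953 in the exact permutation test, so no pair passed, and rho was 0.500 to 0.567. Leaving out the 2 horses farthest from the median of the first gene of a pair brought r to 0.445 to 0.584. Control horse650 had 15.12 for IFI27 but ranked 8th or 9th of the 9 control horses for the other genes. Without it the r of IFI27 with the other genes was 0.806 to 0.888, and all 10 pairs of the control group passed the adjusted threshold.

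In EE-treated horses 9 of the 10 pairs had a lower r than in control horses, the exception being IFI27 with SPATS2L. Their r ranged from -0.036 (IFI27 and USP18) to 0.835 (MX1 and SPATS2L), with a median of 0.560 against 0.933 in control horses, and the difference between the groups was not tested. By Pearson's r 3 of 10 pairs passed the adjusted threshold in the permutation test: MX1 and SPATS2L (r = 0.835, permutation p = 0.00195; rho = 0.867, permutation p = 0.00226), IRF7 and SPATS2L (r = 0.766, permutation p = 0.0113; rho = 0.697, permutation p = 0.0306) and IFI27 and SPATS2L (r = 0.75, permutation p = 0.0167; rho = 0.418, permutation p = 0.232). By Spearman's rho only MX1 with SPATS2L passed (adjusted p = 0.0113 in the permutation test), while the adjusted p was 0.0765 for IRF7 and 0.273 for IFI27 with SPATS2L. Without horse469 r was 0.738, 0.481 and 0.457 in the same order and no pair of the EE-treated group passed (adjusted p = 0.0652, 0.278 and 0.329 in the permutation test). The call of IRF7 with SPATS2L was also lost without horse648 (r = 0.710, adjusted p = 0.0885 in the permutation test) and with normexp (r = 0.656, adjusted p = 0.0758). That of IFI27 with SPATS2L was also lost without horse646 (r = 0.775, adjusted p = 0.113 in the permutation test) or horse468 (r = 0.743, adjusted p = 0.0517). MX1 with IRF7 missed the threshold (r = 0.696, adjusted p = 0.0509 in the permutation test) but passed without EE-treated horse643, horse651 or horse475. Its r was then 0.772, 0.761 and 0.779, with adjusted p = 0.032, 0.039 and 0.028 in the permutation test. The same pair also passed without control horse650, with r still 0.696 (adjusted p = 0.036 in the permutation test). Without the 2 horses farthest from the median of the first gene, the r of the 3 pairs that passed with all horses was 0.574, 0.578 and -0.372. For IFI27 with SPATS2L these were horse469 and horse646, and r fell without horse469 alone (0.457) but not without horse646 alone (0.775). USP18 did not pass with any gene (r from -0.036 to 0.600), and its 2 probes followed each other with r = 0.930. Its signal in EE-treated horses, 4.55 to 5.88, was the lowest of the 5 genes and depended on the background correction. With normexp its r with the other genes was between -0.035 (IFI27) and 0.246 (SPATS2L). Slides held 2 horses of a group at most, so r could not be taken within a slide. After the slides' means had been fitted, the median r was 0.920 in control horses and 0.674 in EE-treated horses. On the 16 arrays of scan day 1 the medians were 0.932 and 0.384, and no pair of the EE-treated group passed.

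**Figure D3:**
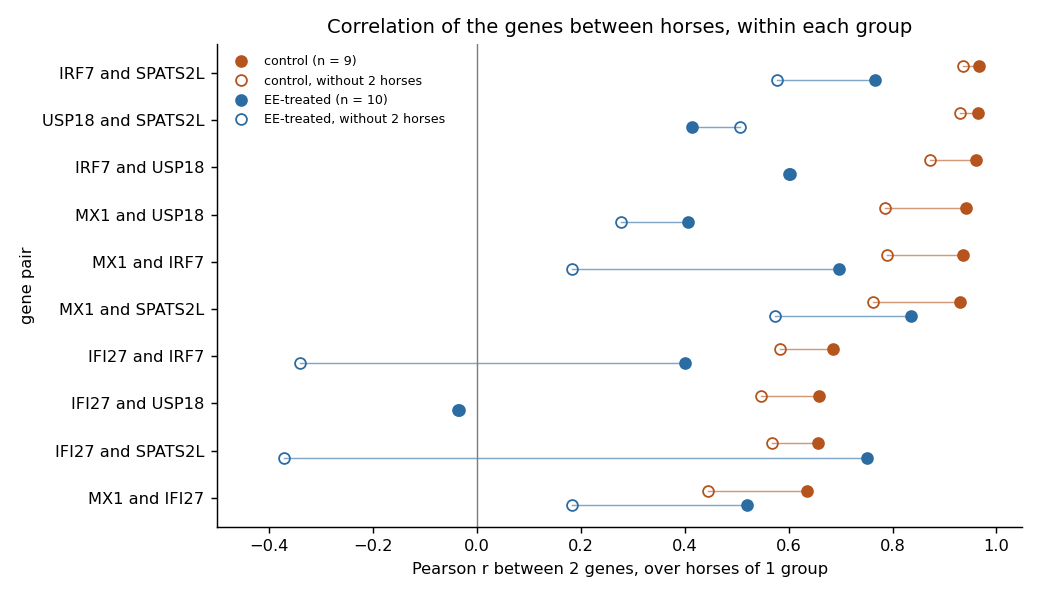
Pearson r (horizontal axis) for each of the 10 gene pairs (vertical axis) over control horses and over EE-treated horses; filled points use all horses of a group, open points leave out the 2 horses farthest from the median of the first gene, and a line joins both (they coincide for IRF7 with USP18 and IFI27 with USP18 in EE-treated horses). Pairs without IFI27 lie between 0.930 and 0.966 in control horses, and all 10 pairs lie lower in EE-treated horses except IFI27 with SPATS2L.

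The difference between the groups was looked at within slides, because each of the 5 slides held both groups. The EE-treated mean was lower on 4 of 5 slides for MX1, IFI27, IRF7 and SPATS2L, and on 5 of 5 for USP18. For IRF7, USP18 and SPATS2L, chosen on this difference in the same arrays, the slides are a description and no separate evidence. Slide 5, which held control horse471 with EE-treated horse469 and horse475 and was scanned on another day, gave 0.41 for MX1, 0.41 for IFI27, 0.38 for IRF7, 0.03 for SPATS2L and -0.25 for USP18. With slide as a block the differences were -1.20 for MX1, -0.88 for IFI27, -1.47 for IRF7, -1.53 for USP18 and -1.32 for SPATS2L. A control array was always at position 2 or 4 and an EE array at position 1 or 3, apart from horse475 at position 2 of slide 5, so that position and group can hardly be told apart. Without control horse470 and horse476, an alternative chosen after seeing the data, the differences were -0.65, -0.70, -0.99, -1.03 and -0.89 in the order MX1, IFI27, IRF7, USP18 and SPATS2L. Normexp background correction with an offset of 50 gave -0.81 for USP18. On the arrays of scan day 1 alone the differences were -1.47, -1.10, -1.78, -1.75 and -1.54 in the same order.

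Sex was unequal between the groups, which made it a question of its own. With the group fitted, no difference between males and females passed the adjusted threshold in the 5 genes. The estimates, male minus female, were 0.39 for MX1, -0.11 for IFI27, 0.46 for IRF7, -0.05 for USP18 and 0.23 for SPATS2L, with adjusted p between 0.861 and 0.981 in limma. None of the 5 passed an unadjusted p under 0.05 in limma, against 5.97% of all probes. The 95% interval for MX1 reached from -0.56 to 1.34 on the log2 scale, so that sizeable differences between the sexes lay within it. Over all probes 23 passed the adjusted threshold for sex. Within males the EE-treated minus control difference of MX1 was -1.44 and within females -0.69, and those of IRF7 were -1.24 and -1.31. Those of IFI27 were -0.74 and -1.12, of USP18 -1.83 and -1.24, and of SPATS2L -1.27 and -1.18. The difference in males minus that in females was -0.74 for MX1, but 0.10 without control horse470 and horse476, both males. For IRF7 it was 0.07, and between -0.39 and 0.49 with single horses left out. The interaction of sex and treatment had an adjusted p between 0.983 and 0.995 in limma for the 5 genes, and 0 of 5 reached an unadjusted p under 0.05, which 3.05% of all probes did.

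Other genes of the interferon pathway could be named only in part. Of 106 genes on a list of ligands, receptors, signalling molecules, inhibitors, sensors and effectors, 19 were named through a RefSeq accession, and 13 of these were well above background on every array. At an unadjusted p under 0.05 in limma 3 were lower in EE-treated horses (OAS2, EIF2AK2 and TLR3) and 2 were higher (SOCS3 and B2M), and 0 passed after adjustment over all probes in limma. Over all probes 4.24% were lower and 7.44% higher at that p, so that 2 of 19 higher is near the share over the array. Among the 13 genes well above background on every array 2 were lower and 2 higher, beside 1428 lower and 2134 higher of the 24530 such probes. The counts moved both ways with single horses left out, from 2 to 6 lower and from 1 to 3 higher. There were 5 lower without control horse477, horse647 or horse650 and 6 without EE-treated horse469, while 1 was higher without control horse477. With sex as a covariate 2 were lower and 2 higher, and without control horse470 and horse476 together 1 was lower and 1 higher. The list was written with earlier results of these data known, so nothing is read from the 3 lower. The random-variance test also gave 3 lower and 2 higher. The median difference of the 19 was -0.22, beside 0.06 over all 43384 probes. Each of these genes is given by its brightest probe.

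Among the ligands, the signal of IFNA1 was not well above background on any array, that of IFNB1 was so on 2 control and 1 EE array and that of IFNG on 3 and 2. IFND1 was well above background on all arrays, at 6.57 ± 0.46 (SD, n = 9) without EE and 6.85 ± 0.28 (SD, n = 10) with it. SOCS3, an inhibitor of cytokine signalling, differed by 0.46 (standard error 0.17, adjusted p = 0.319 in limma). Of the sensors of viral nucleic acid, TLR3, well above background on 9 of 9 control and 8 of 10 EE arrays, differed by -0.77 (standard error 0.28, adjusted p = 0.319 in limma), and TLR7, TLR8 and TLR9 by -0.22, -0.22 and 0.19.

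Among the effectors, EIF2AK2, a kinase that halts translation on binding double-stranded RNA, differed by -0.68 (standard error 0.26, adjusted p = 0.326 in limma). The OAS enzymes, which make the short adenylate chains that activate RNase L, differed by -0.53 (OAS1), -0.82 (OAS2) and -0.64 (OAS3), while OASL differed by 0.12. The chemokine CXCL10 varied widely, with 5.25 ± 1.21 (SD, n = 9) without EE and 5.02 ± 1.41 (SD, n = 10) with it. B2M, the light chain of MHC class I, differed by 0.25 (adjusted p = 0.357 in limma). IFI6, DDX60L and PSMB9, named only through the study's lists and so chosen on the same contrast, differed by -1.11, -0.67 and 0.34.

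**Figure D4:**
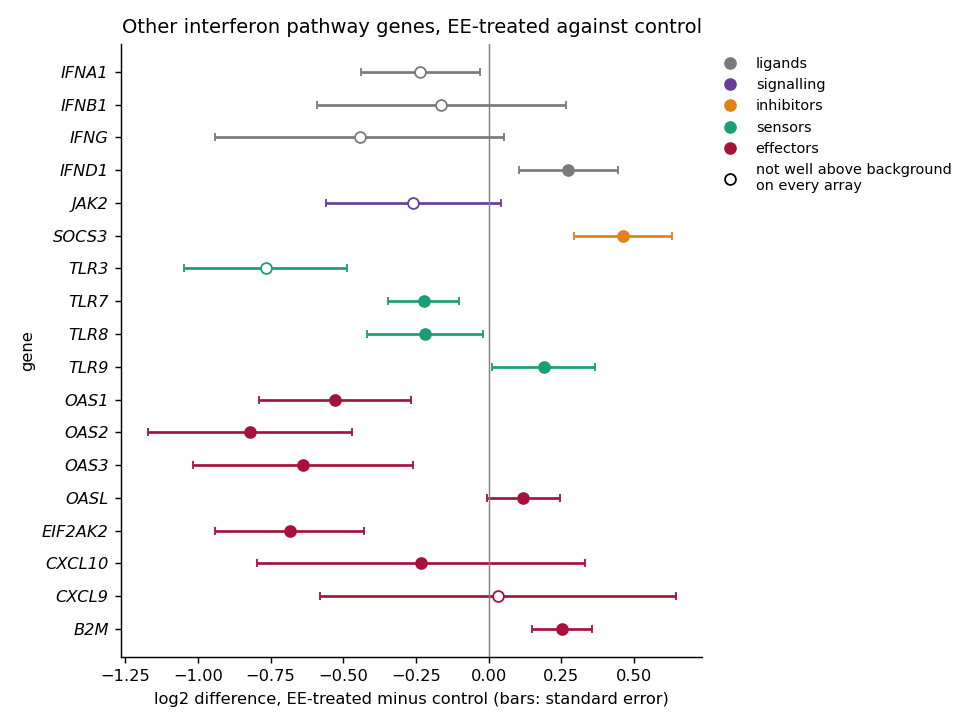
Log2 difference, EE-treated minus control, with its standard error (horizontal axis) for 18 other interferon pathway genes named through a RefSeq accession (vertical axis), coloured by role; open points were not well above background on every array. The lowest estimates are those of OAS2, TLR3, EIF2AK2, OAS3 and OAS1, from -0.82 to -0.53, and the highest is that of SOCS3 at 0.46.

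Likeness to the 5 genes was measured as the mean of the 5 Pearson r values over the 19 horses, each on deviations from the group mean, among 27817 probes well above background on at least 10 arrays. The 5 other named genes most like them were OAS2 (mean r = 0.851), OAS1 (0.816), OAS3 (0.795), IFI6 (0.776) and EIF2AK2 (0.768). The median over all other probes was -0.053 and the 99th percentile 0.631. This probe of OAS2, which is not its brightest, was closest to SPATS2L, with r = 0.948, and least close to IFI27, with r = 0.659. In control horse470 and horse476 the brightest probe of OAS2 reached 12.42 and 12.54, against a control mean of 10.80. TLR8 had a mean r of 0.699 and CXCL10 of 0.636, whereas B2M (-0.027) and IFND1 (-0.400) did not follow the genes.

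Of 56 markers of blood cell types, 14 were named through a RefSeq accession. HBB of red cells, CD14 of monocytes and CD2 of T cells were well above background on every array, as were 11 of the 14 in all, while the red cell gene SLC4A1 was not so on any. No marker differed after adjustment over all probes in limma. At an unadjusted p under 0.05, 1 was higher in EE-treated horses, MMP9 of neutrophils, by 0.59 (standard error 0.23, adjusted p = 0.342 in limma), and 0 were lower. A share of 1 in 14 is near the 7.44% of all probes that were higher at that p. Likeness of the 14 to the 5 genes lay between -0.37 and 0.40, with CD14 at the upper end. LCK of T cells, named through the study's lists and so chosen on the same contrast, differed by 0.35 and had a likeness of -0.50. The summed linear signal of these 15 markers, which follows a few bright probes and does not measure cell content, had a median of 62840 in control horses and 71737 in EE-treated horses. In horse476 it was 104821, the highest of the control group, with HBB giving the most signal (23.6% of the sum), and in horse470 it was 48630, with CD14 giving the most (22.5%). The part of cell composition in the differences above was not tested.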

How the data were processed

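Whole-blood RNA of 19 horses was hybridised to 1-colour arrays, 1 per horse. Per the file headers, the authors extracted the spots' intensity with Feature Extraction 10.7.3.1 (the submitters' processing notes name 9.1), already corrected for background, and the deposited spots carry other columns, marks of whether a spot was an outlier or above background. The authors also deposited log2 values, used as an alternative. The processed signal of 43803 non-control spots was multiplied by a factor per array that set the 75th percentile at 500, outlier spots (2 to 56 per array) were left out, and spots of a probe were averaged. All 43384 probes entered lmFit and eBayes of limma 3.58.1 under R 4.3.3, without covariates as in the methods, and correlations were tested by permutation in Python 3.11.15 with scipy 1.17.1 (exact for 9 horses, 100000 resamples for 10). The fits were tested on simulated data. RefSeq names (assembly TB-T2T, names only) covered 1781 of 3275 probes with an accession; 407 listed probes kept the study's symbols, and 335 more took one through a shared transcript. The 5 genes and the gene lists were chosen with earlier results of these data known. The named genes were the 5 genes, those of the interferon and cell marker lists that could be named, and the 5 genes most like them. The values of 1 gene of the interferon list are not reported here, although the counts over the list hold it. Alternatives were quantile normalization, median centring, the deposited values, normexp on the median signal, outlier spots kept, dim probes left out, sex as a covariate, slide as a block, the random-variance test, probe means, and each horse left out.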

Additional observations from a re-analysis of the deposited data

Results flagged for a closer look

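Control and EE-treated horses were searched for each named gene whose probe was well above background on all arrays of the group. OAS2 entered with 2 probes, and there were 70 groups of values in all. A horse was looked for whose gap to the nearest other horse was large beside the range of its group (Dixon's ratio at the 95% level). Chance gives about 1 in 20 groups if they are independent, and 6 were found. These groups were not independent, since they shared horses and several genes followed each other. The 6 are therefore not set against chance. EE-treated horse469 was the highest of its group 4 times: for SOCS3 at a log2 signal of 5.58 (next horse 4.78), for OAS1 at 15.34 (next 14.34), and for OAS2 at 11.40 (next 10.30) with its brightest probe and at 9.11 (next 7.90) with the probe most like the 5 genes. EE-treated horse646 was the highest for CD68, at 9.19 (next 8.34), and control horse650 for ITGA2B, at 9.04 (next 8.31). The 5 genes themselves gave no such horse in either group.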

How the results depend on the processing

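The lower signal in EE-treated horses kept its direction for all 5 genes under every alternative run. For IRF7, USP18 and SPATS2L, which were chosen on this difference in the same arrays, the kept direction is no evidence. The difference lay between -1.47 and -0.65 for MX1 and between -1.10 and -0.70 for IFI27. The adjusted p in limma stayed over 0.05 for both (0.201 to 0.614 and 0.241 to 0.631). With each horse left out in turn, MX1 was between -1.37 and -0.95, IFI27 between -1.08 and -0.76, IRF7 between -1.58 and -1.21, USP18 between -1.67 and -1.31 and SPATS2L between -1.47 and -1.08. No paired analysis was possible because the labels number every horse on its own and none occurs in both groups. Leaving out control horse470 and horse476 together and keeping only scan day 1 were alternatives chosen after seeing the data. For all changes given here the cause was not tested.

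Probes past the adjusted threshold for EE numbered 7 with normexp and 2 without dim probes, and 0 to 3 with single horses left out (3 without control horse650). Probes lower at an unadjusted p under 0.05 numbered 858 with normexp, and probes higher numbered 2044 without horse470 and horse476. On the interferon list, 1 gene was higher with quantile normalization, with probe means and without horse470 and horse476, and 1 was lower without those horses. With single horses left out, 2 to 6 genes were lower and 1 to 3 higher.

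For sex, 14 probes passed after adjustment and 1680 before it with normexp, and 15 passed after adjustment with slide as a block and on scan day 1. In the order MX1, IFI27, IRF7, USP18 and SPATS2L, the male minus female estimates were 0.36, -0.22, 0.098, -0.11 and 0.049 with slide as a block, 0.40, -0.23, 0.085, -0.088 and 0.027 on scan day 1, and 0.011, -0.25, 0.20, -0.44 and -0.047 without horse470 and horse476, so that SPATS2L turned sign. With normexp USP18 was -0.021 and IFI27 -0.060. With single horses left out MX1 ranged from 0.21 (without control horse650) to 0.55, IRF7 from 0.23 (without EE-treated horse469) to 0.67, IFI27 from -0.41 to 0.051, USP18 from -0.24 to 0.10 and SPATS2L from -0.023 to 0.37. In the same order the interaction of sex and treatment, which passed for none of the 5 genes in limma, was -0.36, 1.23, 0.49, 0.14 and 0.30 with slide as a block, -1.49, -0.16, -1.04, -1.29 and -0.85 on scan day 1, and 0.10, 0.77, 0.72, 0.28 and 0.56 without horse470 and horse476, against -0.74, 0.38, 0.07, -0.59 and -0.09 with the settings of the report. For IRF7 it was -0.025 with quantile normalization and 0.036 with median centring. With single horses left out it ranged from -1.29 to -0.39 for MX1, -0.19 to 0.69 for IFI27, -0.39 to 0.49 for IRF7, -1.10 to -0.21 for USP18 and -0.59 to 0.31 for SPATS2L. Probes past the adjusted threshold for it numbered 3 with quantile normalization and on scan day 1 and 0 to 2 with single horses left out (2 without control horse645), and 533 probes passed before adjustment with normexp.

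In EE-treated horses the r of IFI27 and USP18 was 0.047 with slide as a block, 0.011 with probe means and 0.0023 with quantile normalization, and that of IRF7 and USP18 was -0.011 with normexp. With single horses left out, IFI27 and IRF7 ranged from -0.12 to 0.60 and IFI27 and USP18 from -0.40 to 0.31, while 6 to 10 control pairs and 0 to 4 EE pairs passed. On scan day 1 alone 0 EE pairs passed. With slide as a block the correlations were not tested. Signals that were not well above background, such as those of IFNA1 and SLC4A1, have no order between groups.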

Other observations

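Of 27806 other probes, 128 had a mean r over 0.7 with the 5 genes, and 109 of these (85.2%) were unnamed, against 93.9% of all 27806. The unnamed probe most like them, A_69_P035366, had a mean r of 0.837 and differed by -0.81 between the groups on the log2 scale, while probe A_69_P111808, with a mean r of 0.835, differed by -0.20.

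The horses highest for IFI27 were not in every case high for the other genes. Those ranked 1st, 2nd and 4th for IFI27 (horse476, horse469 and horse472) were among the 5 highest for 4 or 5 of the genes. Control horse650 had the 5th highest signal for IFI27 of all 19 horses but ranked 8th to 12th for the others, and EE-treated horse646 had the 3rd highest signal for IFI27 and ranked 8th for SPATS2L, 9th for MX1, 14th for IRF7 and 18th for USP18.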
